A study of Mus musculus with 24 samples.

Results

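The genes described here are 36 genes of the presynaptic terminal, the side of a synapse that stores and releases transmitter. They were taken by symbol from a deposited table of 23306 genes. All 36 had an entry and passed the filter for testing (a mean of at least 1 TPM over the libraries of a fit; TPM is transcript abundance corrected for gene length and scaled to the same total in each library). They were grouped by role as 8 proteins of the vesicle membrane, 3 synapsins, 9 synaptotagmins and Doc2 proteins, 8 SNAREs, complexins and disassembly factors, 5 proteins of the active zone, and 3 genes of the Rab3 GTPases and their effector.

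Every mouse was a female C57BL6 animal that carried Tg(Nes-cre/ERT2), a tamoxifen-dependent Cre driven by Nestin sequences, and 1 Rpl22 allele of the RiboTag kind (RPL22HA/WT). All received tamoxifen at 160 mg/kg daily for 5 days at 9 to 11 weeks of age, so the sedentary controls carried the same alleles and drug as the running mice. Recombination adds a haemagglutinin tag to the ribosomal protein Rpl22 in cells that use Nestin, and the descendants of those cells keep it. RNA came from the tagged ribosomes of the dentate gyrus, which the labels call immature neurons (immunoprecipitate, IP), or from the dentate gyrus without selection (input). Running mice had a free wheel and sedentary mice a glued wheel for a treatment time of 11, 18 or 27 days, counted from an event that the labels do not name. Each combination of fraction, activity and day had 2 libraries, 24 in all. Letters tell the libraries of a group apart (day 11 has a and b; day 18 has c and d; day 27 has e and f). Since no label names the mice behind a library, the p-values below reflect only how far these samples spread, and that spread may be technical.

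At a presynaptic terminal, transmitter is loaded into vesicles, and synapsins tether the vesicles to one another and to the cytoskeleton. Rab3 GTPases and active zone scaffolds bring vesicles to the release site, where Munc13 proteins prime them. SNARE proteins then fuse the membranes when a synaptotagmin binds calcium, and NSF with its SNAP adaptors takes the used SNARE complexes apart. In the hippocampus, adult-born granule neurons grow mossy fibre terminals onto CA3 cells as they mature.

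Many neuronal genes carry an RE1 element, the site of the repressor REST, and some carry a cAMP response element. The windows from 250 bases before to 50 bases after the start of each gene were searched on both strands for TCAGCACC (the left part of RE1), for GGACAG (its right part) and for TGACGTCA (the cAMP response element). RefSeq (GRCm38.p6) gave 36 such windows for 26 of the 36 genes. The left part was found in 2 of the 36 windows, those of Syn1 and of the Munc13 gene Unc13a. A link of these matches to the results below was not tested. The windows of Syn1 and Unc13a are printed because they hold the left part. Capitals mark the left part in both and, in Syn1, also the cAMP response element. Both genes lie on the minus strand, and the windows are chrX:20920869-20921168 for Syn1 and chr8:71671708-71672007 for Unc13a.
Syn1: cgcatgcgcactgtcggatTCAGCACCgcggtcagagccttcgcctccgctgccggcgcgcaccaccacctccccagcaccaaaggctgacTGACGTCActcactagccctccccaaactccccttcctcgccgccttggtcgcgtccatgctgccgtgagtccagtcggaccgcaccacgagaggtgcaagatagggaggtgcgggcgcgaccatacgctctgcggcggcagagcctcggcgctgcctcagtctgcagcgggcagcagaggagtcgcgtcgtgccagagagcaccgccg
Unc13a: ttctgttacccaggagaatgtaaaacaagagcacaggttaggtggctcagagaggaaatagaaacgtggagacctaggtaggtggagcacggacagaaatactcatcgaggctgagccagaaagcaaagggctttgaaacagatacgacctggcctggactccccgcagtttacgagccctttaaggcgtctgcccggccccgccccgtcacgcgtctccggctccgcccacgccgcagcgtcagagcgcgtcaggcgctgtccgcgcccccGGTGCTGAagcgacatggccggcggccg
In Syn1 the left part began 231 bases before the start and the cAMP response element 159 bases before it. In Unc13a the left part stood in reverse orientation, from base 23 after the start. The left part occurred in 1.65% of 32851 promoter windows in the RefSeq table and the cAMP response element in 1.79%. The right part occurred in 22.2% of all windows and in 10 of the 36 windows of these genes. Both parts 2 bases apart occurred in 0.0244% of all windows and in 0 of the 36. The printed Unc13a window also holds the right part, left in lower case and not 2 bases from the left part. Other spacings were not searched. A match describes letters and is not a measured site.

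The IP libraries held between 1510.8 and 3683.1 TPM summed over 10 immature neuron markers and the input libraries between 508.4 and 812.5 TPM, and all 10 markers were higher in the IP. All 8 neural stem cell markers were also higher in the IP. Sums over 8 astrocyte markers ranged from 1910.2 to 3891.5 TPM in the IP and from 1651.6 to 2403.9 TPM in the input. Oligodendrocyte sums were higher in every IP library (901.6 to 1386.6 TPM) than in every input library (490.8 to 787.0 TPM). Interneuron sums were lower in the IP (176.2 to 224.9 TPM) than in the input (564.3 to 915.1 TPM). Microglia sums were lower too (87.2 to 205.6 against 252.9 to 399.96 TPM). No marker of the 8 lists was at 0 in any library, IP included. Among the astrocyte markers 2 were higher in the IP and 4 were lower. The part of these cells in the results was not tested. Both IP libraries of letter a had low means over the olfactory receptor genes (0.565 and 0.709 TPM, the lowest in the IP), and the input libraries of day 18 had the highest of the input (4.67 to 9.78 TPM, against 0.518 to 3.66 TPM). The running IP library a held 17.4% of its TPM in Rpph1, the RNA of ribonuclease P, and the other IP libraries 9.16% or less.

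IP and input were compared to see which presynaptic RNAs the tagged ribosomes carried above or below their share of tissue RNA. Most lay below: 20 of the 36 genes were lower in the IP and 9 were higher, while the median over the 36 was a log2 difference of −0.44 against 0.12 over all genes tested. Calls (limma, adjusted p under 0.05) were common in this comparison, with 69.9% of all genes called, 41.4% higher and 28.5% lower. All differences are on the log2(TPM + 1) scale. Fewer cells of a type and less RNA per cell cannot be told apart in such samples. Another scaling (median of ratios) moved the median of all genes from 0.12 to −0.12 and the share of higher genes among the called from 59.3% to 40.0%. It gave 6 higher and 27 lower presynaptic genes. Sv2c, Syn1, Syt3, Syt7, Syt11, Vamp1 and Bsn, which were not called without that scaling, were called lower under it. Other exceptions under that scaling are given with the directions below. All 29 calls held in each of the 24 fits that left out 1 library.

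**Figure D1:**
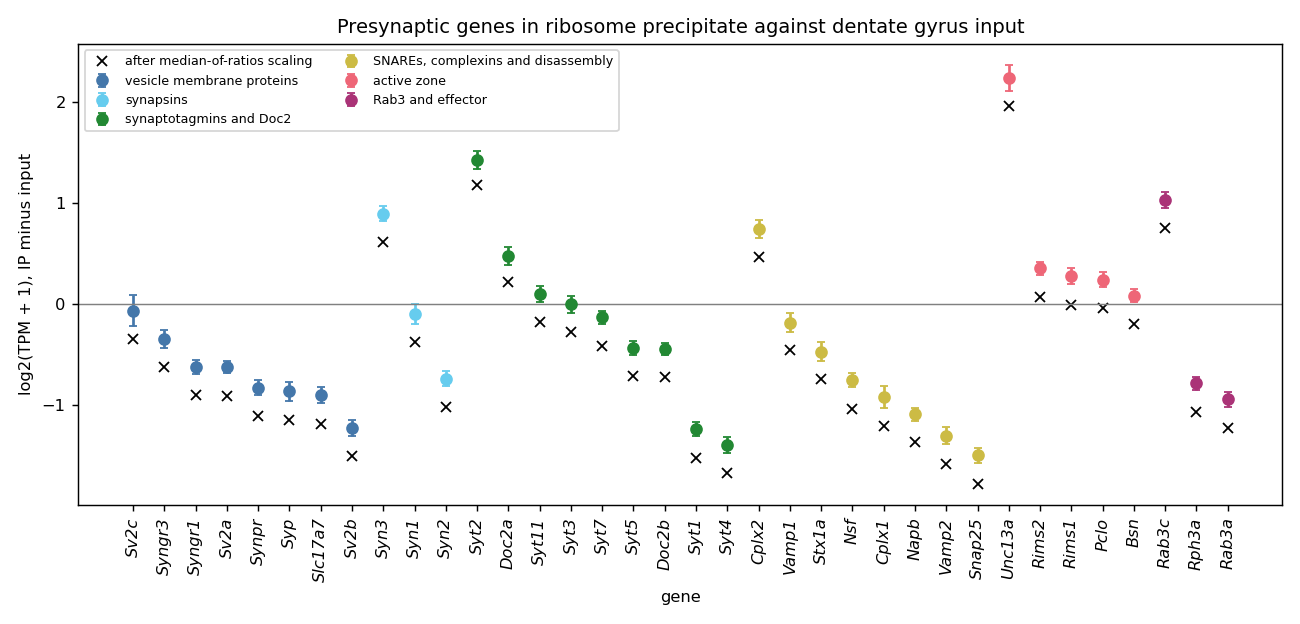
Log2(TPM + 1) in the IP minus the input for the 36 genes, ordered by role (colour) with the standard error of the fit as bars; crosses give the value after median-of-ratios scaling. All 8 vesicle membrane genes lie below 0 and Unc13a is the highest, at 2.24.

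Of the vesicle membrane proteins, 7 of 8 were lower in the IP and 0 were higher. Sv2b, a vesicle glycoprotein that also regulates release, ranged from 22.6 to 48.4 TPM in the IP (median 34.6) and from 59.3 to 117.1 TPM in the input (median 79.95). The 12 IP libraries all lay below the 12 input libraries, and the log2 difference was −1.22 ± 0.079 (SE, limma adjusted p = 7.44e-11). Slc17a7, the vesicular glutamate transporter VGLUT1, averaged 280.5 ± 70.7 TPM over the IP libraries against 514.8 ± 82.9 TPM over those of the input (SD, n = 12 each). Its log2 difference was −0.90. Syp, the membrane protein synaptophysin used to mark synapses, stood at 424 ± 119 against 763 ± 185 TPM. Synaptoporin (Synpr), which is abundant in mossy fibre terminals, differed by −0.82, Sv2a and Syngr1 by −0.62 each and Syngr3 by −0.34. Sv2c was not called (−0.06). Its input values spread widely, from 151.2 to 1092.4 TPM with the highest at day 18. Without the day 18 libraries it was called higher in the IP, and under median-of-ratios scaling it was called lower (−0.34).

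The synapsins differed from one another. Syn1 was not called (268.0 ± 75.4 TPM in the IP, 281.6 ± 53.9 TPM in the input, SD, n = 12). Syn2 was lower, with 153 ± 23.2 against 255 ± 32.4 TPM, and its libraries did not overlap. Syn3, a synapsin known for its expression in early neuronal development, ranged from 40.8 to 93.7 TPM in the IP (median 69.6) and from 29.5 to 46.5 TPM in the input (median 36.3). The ranges overlapped, and the log2 difference was 0.89 ± 0.076 (SE, limma adjusted p = 3.52e-09). In the annotation (GENCODE M21), 14.1% of the exonic bases of Syn3 overlap Timp3 on the opposite strand, and the strand setting of the counting is not given in the sources used here. The same limit holds for Syp (16.8%, Gm14703) and Syt4 (14.5%, Gm26658). Doc2a is taken up below, and the other genes of the list share 5.53% or less. Timp3 itself averaged 59.1 ± 9.44 TPM in the IP, against 57.9 ± 8.44 TPM for the input.

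Among the synaptotagmins and Doc2 proteins, 4 of 9 were lower and 2 were higher. Syt1, the fast sensor for synchronous release, ranged from 233.7 to 306.4 TPM in the IP (median 253.3) and from 430.7 to 801.7 TPM in the input (median 635.9). The log2 difference was −1.24 ± 0.069 (SE, limma adjusted p = 9.68e-12). Syt4, a synaptotagmin also found on dense-core vesicles, ranged from 19.6 to 32.8 TPM (median 27.3) and from 46.95 to 94.5 TPM (median 70.9), a log2 difference of −1.39 ± 0.082 (SE, limma adjusted p = 1.85e-11). For both genes the IP and input libraries were fully separate, as they were, in the other direction, for Syt2. Syt2, a fast sensor best known from the hindbrain and from some interneurons, ranged from 10.9 to 26.5 TPM in the IP (median 14.0) and from 3.7 to 8.29 TPM in the input (median 4.87). Its log2 difference was 1.42 ± 0.091 (SE, limma adjusted p = 6.67e-11). Doc2a, a high-affinity sensor linked to asynchronous and spontaneous release, ranged from 6.92 to 23.3 TPM (median 14.7) and from 7.25 to 12.2 TPM (median 9.32), with overlapping libraries and a log2 difference of 0.48 ± 0.090 (SE, limma adjusted p = 9.92e-05). Doc2a shares 39.4% of its exonic bases with Ino80e on the opposite strand, which was itself higher in the IP (29.5 ± 6.05 against 22.4 ± 2.68 TPM), and without a stated strand setting, reads in the shared bases cannot be assigned to either gene here. Its relative Doc2b was lower (−0.44), as was Syt5 (−0.44). Syt3, Syt7 (−0.13) and Syt11 (0.10) were not called, and Syt11 turned negative under median-of-ratios scaling.

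Of the fusion machinery, 6 of 8 genes were lower and 1 was higher. Snap25, a SNARE of the plasma membrane, was the most abundant of the 36 in the input, ranging from 1149.6 to 1762.5 TPM (median 1505.7). In the IP it ranged from 400.3 to 673.2 TPM (median 522.3), with no overlap and the lowest log2 difference of the 36, −1.49 ± 0.072 (SE, limma adjusted p = 1.24e-12). Vamp2, the SNARE of the vesicle, ranged from 234.1 to 428.2 TPM in the IP (median 299.0) and from 586.9 to 1048.1 TPM in the input (median 773.9), and differed by −1.30 ± 0.083 (SE, limma adjusted p = 6.66e-11). Napb, the neuronal SNAP adaptor of NSF, ranged from 95.2 to 152.9 TPM (median 108.1) and from 204.6 to 292.4 TPM (median 239.97), a difference of −1.09 ± 0.065 (SE, limma adjusted p = 2.15e-11). In each of these 3 genes no IP library reached the lowest input library. Cplx1 (−0.92), Nsf (−0.75) and the SNARE Stx1a (−0.47) were lower too, and Vamp1 was not called (−0.18). Cplx2, a complexin that clamps and promotes fusion, went the other way. It was the most abundant of the 36 in the IP, ranging from 1489.4 to 2659.7 TPM (median 2237.6) against 1044.4 to 1840.4 TPM in the input (median 1224.7), with overlapping libraries and a difference of 0.75 ± 0.089 (SE, limma adjusted p = 3.68e-07).

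The active zone was the only role with more genes higher than lower, 4 of 5 higher and 0 lower, although median-of-ratios scaling left 1 higher and 1 lower. Unc13a, also called Munc13-1, ranged from 307.7 to 791.2 TPM in the IP (median 521.6) and from 92.6 to 140.7 TPM in the input (median 111.0). The libraries did not overlap, and the log2 difference was 2.24 ± 0.127 (SE, limma adjusted p = 1.89e-11). Its paralog Unc13b is not among the 36 but had the lowest unadjusted p of 81 other presynaptic genes. Unc13b ranged from 239.6 to 453.1 TPM in the IP and from 10.5 to 12.8 TPM in the input. Its log2 difference was 4.84 ± 0.079 (SE, limma adjusted p = 5.21e-20). The scaffold genes differed far less: Rims2 by 0.35, Rims1 by 0.28 and Pclo (piccolo) by 0.24, while Bsn (bassoon) was not called (0.08). Under median-of-ratios scaling the calls of Rims1, Rims2 and Pclo were lost and Rims1, Pclo and Bsn turned negative. By day, Rims1 differed by 0.00 at day 11, 0.78 at day 18 and 0.04 at day 27, and without the day 18 libraries Rims1 and Pclo were not called.

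The Rab3 group was split. Rab3c, a Rab3 GTPase, ranged from 208.1 to 317.3 TPM in the IP (median 281.3) and from 109.4 to 180.9 TPM in the input (median 132.3). The log2 difference was 1.03 ± 0.081 (SE, limma adjusted p = 1.15e-09) with no overlap. Rab3a, the main Rab3 of brain synapses, was lower, with 306 ± 67.4 against 581.6 ± 74.8 TPM (log2 difference −0.94). Rph3a (rabphilin), which binds Rab3 on the vesicle, was lower as well, with 185.5 ± 58.7 against 312 ± 58.7 TPM. In all, 3 genes (Unc13a, Syt2 and Rab3c) lay above the input in every library and 8 lay below it in every library. Such separation occurred upward in 10.1% and downward in 2.08% of all genes tested.

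Ratios of related genes within a library do not depend on the scaling of that library. The median ratio of Cplx2 to Cplx1 was 13.0 in the IP and 4.13 in the input. Rab3c to Rab3a gave 0.968 and 0.237, with no overlap between the fractions. Syt7 to Syt1 gave 0.797 and 0.349, and Syn3 to Syn1 gave 0.256 and 0.127. Each of these 4 ratios was thus higher in the precipitate, and only that of Cplx2 to Cplx1 had overlapping ranges (4.41 to 19.3 and 2.35 to 5.55). Vamp2 to Vamp1 was lower in the IP, with a median of 13.3 against 29.4. Unc13a to Unc13b was lower too, with 1.57 against 9.58.

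**Figure D2:**
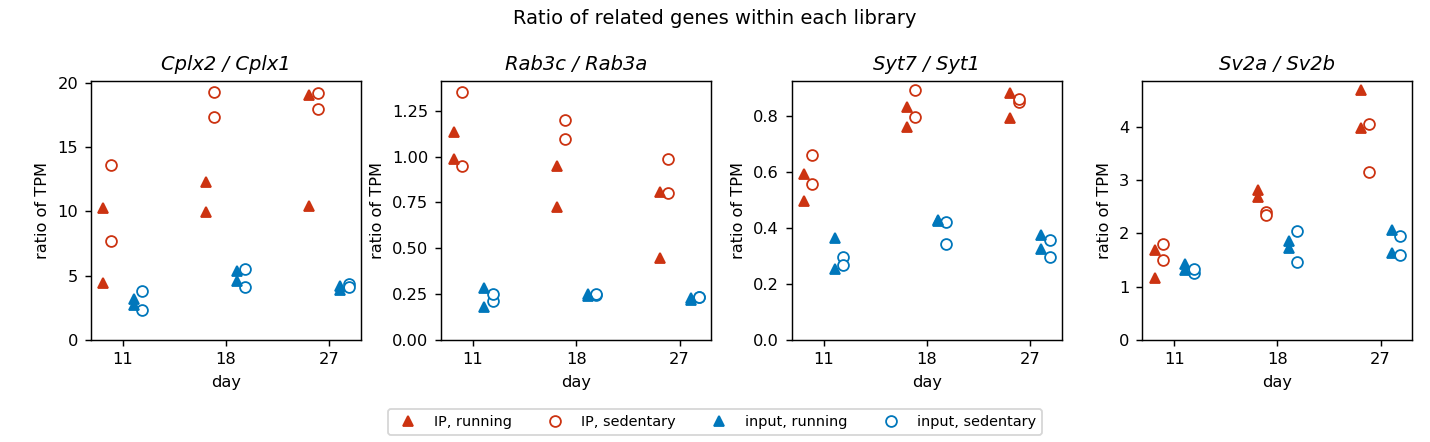
Ratio of TPM of 4 gene pairs within each library (y axis) by day (x axis), with IP in red, input in blue, triangles for running and open circles for sedentary. The Sv2a to Sv2b ratio of the IP has a median of 1.59 at day 11 and 4.01 at day 27, and that of the input 1.33 and 1.78.

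Of the 81 other presynaptic genes, 35 were lower in the IP and 21 were higher (median −0.12). The other 3 of the 4 genes with the lowest unadjusted p were lower. Atp6v1g2, a subunit of the proton pump that energises vesicle filling, stood at 173.5 ± 18.9 against 457 ± 84.9 TPM. Slc32a1, the vesicular GABA transporter, stood at 5.10 ± 1.33 against 17.1 ± 2.39 TPM. Rab27b, a GTPase of secretory vesicles, stood at 7.75 ± 0.993 against 21.8 ± 3.46 TPM.

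The comparison of days asked how the RNA on tagged ribosomes changed between 11 and 27 days. The presynaptic genes mostly rose: 18 of 36 were higher at day 27 than at day 11 and 2 were lower, with a median log2 difference of 0.39 against 0.15 over all genes. Of all genes tested in the IP 15.3% were called, 11.4% higher and 3.88% lower. In 20 genes all 4 libraries of day 27 lay above all 4 of day 11 and in 2 they lay below, against 13.2% and 4.8% of all genes. Summed over the 36 genes, the IP held 0.712 to 0.760% of its TPM at day 11 and 0.892 to 1.03% at day 27.

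Median-of-ratios scaling moved the median of all genes from 0.15 to −0.00 and the share of higher genes among the called from 74.6% to 39.2%, and it left 14 presynaptic genes higher and 2 lower. Without both IP libraries of letter a, 12 were higher and 1 was lower. Over all 17608 genes tested in that fit, 453 were higher and 183 lower, with a median of 0.04. With all IP libraries these were 1971 and 671 of 17282 genes. With 1 library left out at a time, 13 to 18 presynaptic genes were higher, and 12 of the 20 calls held in every such fit.

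**Figure D3:**
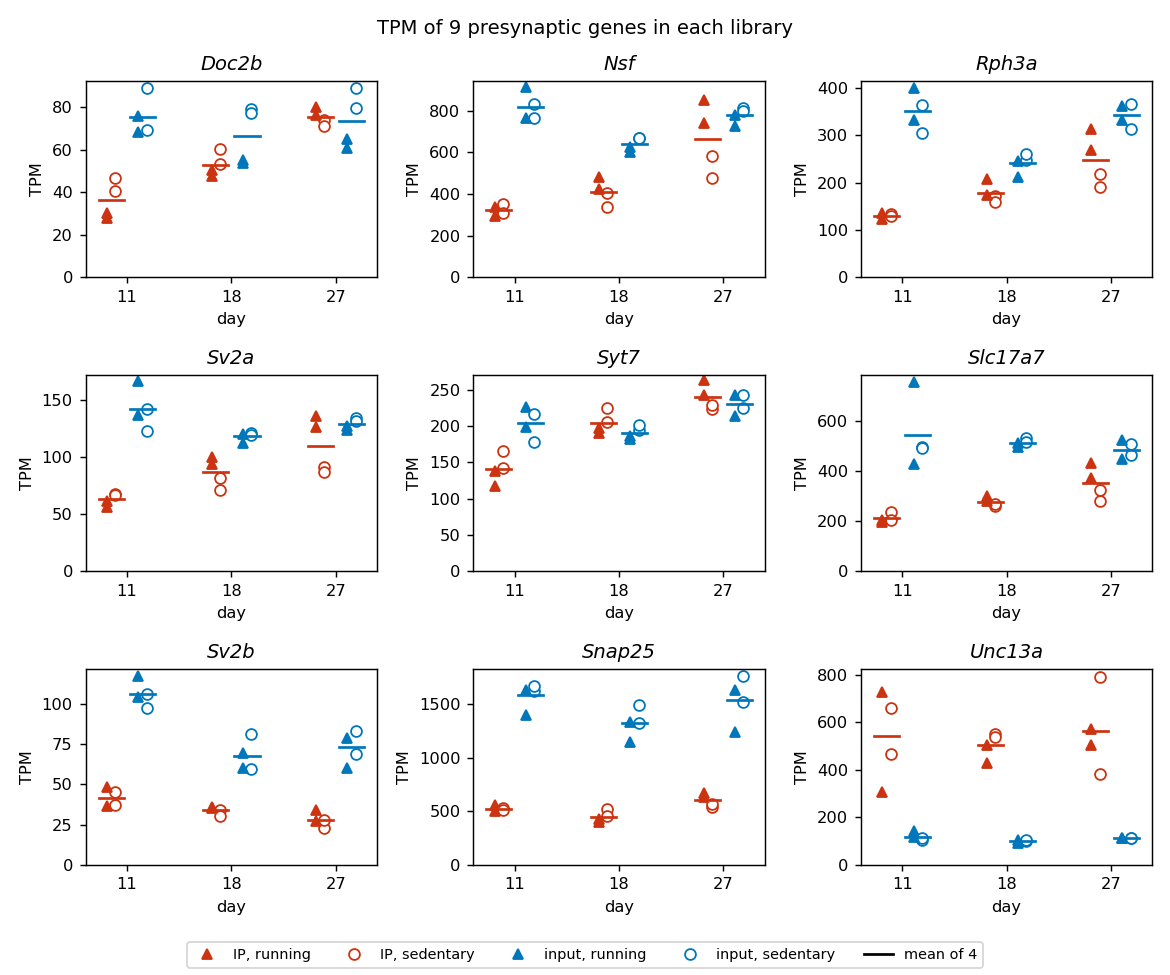
TPM (y axis, from 0) of 9 presynaptic genes in each library by day (x axis); red is IP, blue is input, triangles are running, open circles are sedentary, and lines are means of 4 libraries. Doc2b in the IP goes from 27.9 to 46.8 TPM at day 11 to 71.1 to 80.2 TPM at day 27, within the 60.9 to 89.4 TPM of the day 27 input.

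Doc2b, a calcium sensor for asynchronous and spontaneous release, changed most. In the IP it stood at 40.8 and 46.8 TPM in sedentary and 27.9 and 30.1 TPM in running mice at day 11. At day 27 it stood at 73.96 and 71.1 TPM in sedentary and 80.2 and 76.3 TPM in running mice. The days did not overlap, and the log2 difference was 1.06 ± 0.102 (SE, limma adjusted p = 6.02e-05). Day 18 lay between them, at 47.9 to 60.3 TPM.

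Nsf, the ATPase that takes SNARE complexes apart, followed. It stood at 349.6 and 306.3 TPM in sedentary and 339.3 and 292.0 TPM in running mice at day 11, and at 582.2 and 477.3 TPM and 853.3 and 741.3 TPM at day 27. The 4 values of day 27 all lay above those of day 11, the 2 running libraries highest, and the log2 difference was 1.01 ± 0.130 (SE, limma adjusted p = 0.00025). No other gene of the fusion machinery passed the test: Vamp2 differed by 0.38, Cplx2 by 0.38, Napb by 0.28, Vamp1 by 0.27, Stx1a by 0.23, Snap25 by 0.19 and Cplx1 by −0.58. Of these, Vamp2, Cplx2 and Napb also had libraries that did not overlap between the days.

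Where 4 values of a day follow each other below, their order is sedentary and running of the lower letter, then sedentary and running of the higher letter. Among the other synaptotagmins and Doc2 proteins, Doc2a stood at 6.92, 9.23, 11.0 and 8.19 TPM at day 11. At day 27 it stood at 17.5, 21.7, 16.6 and 17.1 TPM, a log2 difference of 0.98 ± 0.168 (SE, limma adjusted p = 0.00183). Ino80e, with which it shares exonic bases, stood at 23.8 ± 2.85 TPM at day 11 and 30.03 ± 2.61 TPM at day 27 and was not called (limma adjusted p = 0.0948). Syt7, a slow sensor linked to facilitation and vesicle replenishment, stood at 142.8, 117.4, 165.4 and 138.7 TPM at day 11 and 223.9, 243.5, 229.1 and 263.7 TPM at day 27. Its days did not overlap, and the difference was 0.77 ± 0.108 (SE, limma adjusted p = 0.000454). Syt5 (0.77) and Syt3 (0.53) rose as well. Syt2 fell, from 20.5, 14.95, 16.9 and 23.5 TPM to 13.1, 12.2, 10.9 and 11.7 TPM, a difference of −0.61 ± 0.162 (SE, limma adjusted p = 0.0219). Its call was lost without the sedentary library a, the sedentary library f or the running library f, each left out alone. Syt1 (0.21), Syt4 (0.03) and Syt11 (0.23) were not called.

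In the vesicle membrane all 8 genes were called, 7 higher and 1 lower. Sv2a, the vesicle protein bound by the drug levetiracetam, stood at 67.6 and 66.9 TPM in sedentary and 56.2 and 61.4 TPM in running mice at day 11, and at 91.2 and 87.3 TPM and 135.9 and 126.3 TPM at day 27. The days did not overlap, and the difference was 0.77 ± 0.098 (SE, limma adjusted p = 0.000236). Its paralog Sv2b went the other way, from 45.3, 48.4, 37.2 and 36.2 TPM to 22.6, 34.1, 27.7 and 26.96 TPM, a difference of −0.57 ± 0.134 (SE, limma adjusted p = 0.0112). Without both IP libraries of letter a it was −0.40 and not called, and the call was also lost without the sedentary library a or the sedentary library e alone. The ratio of Sv2a to Sv2b in the IP had a median of 1.59 at day 11, 2.54 at day 18 and 4.01 at day 27, with no overlap between the days, and in the input 1.33, 1.80 and 1.78. Synpr rose by 0.75, Slc17a7 by 0.72, Syngr3 by 0.63, Syp by 0.49, Syngr1 by 0.44 and Sv2c by 0.40. The calls of Syp and Sv2c were the least stable: Syp lost its call in 8 of 12 fits with 1 library left out and Sv2c in 11 of 12. Both calls were also lost under median-of-ratios scaling, as were those of Syngr1 and Rab3a.

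Of the synapsins, Syn3 rose by 0.68 and Syn1 by 0.64, and Syn2 was not called (0.31). Rph3a rose by 0.89 ± 0.111 (SE, limma adjusted p = 0.00022), from 134.7, 135.5, 128.7 and 122.8 TPM to 217.4, 313.6, 190.1 and 268.1 TPM, with no overlap. Rab3a rose by 0.48, and Rab3c was not called (−0.11). The active zone had the smallest median difference of the 6 roles (0.08): Bsn rose by 0.54, while Pclo (0.18), Unc13a (0.08), Rims1 (−0.04) and Rims2 (−0.08) were not called.

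Day 18 was compared with both other days. Against day 11, 9 of 36 genes were higher and 0 were lower (Doc2a, Syt5, Doc2b, Syt3, Syt7, Syn3, Sv2a, Rph3a and Syngr1), with 5.66% of all genes called, 4.56% higher and 1.1% lower. In 11 genes all day 18 libraries lay above all day 11 libraries and in 1 they lay below, against 10.2% and 2.92% of all genes. The comparison shares its day 11 libraries with that of day 27. This count was 0 without both libraries of letter a and 0 without the sedentary library a alone. It was 4 without the running library a, 3 without sedentary b or running d, 2 without sedentary c or running c, 5 without sedentary d, and 14 without running e or running f. Between days 18 and 27 the unadjusted p was under 0.05 for 12 of 36 genes and 2293 of all 17282 genes. Limma called 0 of the 36, with 0.122% of all genes called, 0.0694% higher and 0.0521% lower. It called 2 when the running library a or the running library b of day 11 was left out.

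Other measures moved with the days in the IP. Of 8 mature granule neuron markers 7 were higher at day 27 and 0 were lower, and their sum went from 555.4 to 598.4 TPM at day 11 to 772.5 to 1062.8 TPM at day 27. Of 10 immature neuron markers 2 were lower (sums of 1916.4 to 2820.2 and 1510.8 to 2328.5 TPM), as were 2 of 8 neural stem cell markers (1152.8 to 1638.8 and 914.1 to 1325.6 TPM). Of 8 microglia markers 3 were lower (147.9 to 205.6 and 87.2 to 140.98 TPM), of 8 astrocyte markers 1 was lower (1910.2 to 3597.9 and 2040.5 to 3005.7 TPM) and of 8 oligodendrocyte markers 0 were called. Of 8 interneuron markers 1 was higher and 2 were lower (183.4 to 224.9 and 176.2 to 219.9 TPM). The part of these cells in the change of the presynaptic genes was not tested.

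Of the 81 other presynaptic genes, 28 were higher in the IP at day 27 than at day 11 and 0 were lower (median 0.21). The 4 with the lowest unadjusted p were Slc30a3, Svop, Syt13 and Dnm1. Slc30a3, the transporter that loads zinc into mossy fibre vesicles, went from 31.2 ± 4.25 to 65.3 ± 11.9 TPM (SD, n = 4 each). Svop, a vesicle protein related to the SV2 family, went from 28.7 ± 2.10 to 53.4 ± 4.50 TPM. Syt13, a synaptotagmin without calcium binding, went from 48.8 ± 5.83 to 83.8 ± 10.9 TPM. Dnm1, the dynamin that pinches off endocytic vesicles, went from 252 ± 20.4 to 435 ± 70.6 TPM.

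In the input the same comparison of day 27 with day 11 by limma called 0 of 36 genes and 0% of all 20462 genes tested, although 2917 genes and 3 of the 36 had an unadjusted p under 0.05. Cplx1 differed by −0.58 (475 ± 72.2 TPM at day 11, 316 ± 33.9 TPM at day 27, SD, n = 4 each), Sv2b by −0.55 and Stx1a by −0.37, and in these 3 genes all day 27 libraries lay below all day 11 libraries, as in 1.08% of all genes. For Sv2b the change in the IP minus that in the input was −0.03 ± 0.194 (SE), so its fall in the IP is not shown to differ from the input. The input libraries of day 18 stood apart. Against day 11, 11 of 36 genes were lower and 1 was higher, with 49.2% of all genes called, 11.4% lower and 37.8% higher. Under median-of-ratios scaling 21 of the 36 were called in place of 12. The shares just given are those without that scaling, so these 21 cannot be set against a share of all genes here. Among the 11 were Cplx1 (−1.03), Rims1 (−0.80), Sv2b (−0.65), Pclo (−0.60) and Syp (−0.58). The 1 higher gene was Sv2c, which stood at 1092.4, 754.0, 318.3 and 750.5 TPM there, against 151.2 to 236.2 TPM at day 11 and 204.4 to 292.2 TPM at day 27. Against day 18, the input of day 27 had 6 genes higher and 2 lower, with 37.1% of all genes called, 10.4% higher and 26.7% lower. These 8 calls became 1 without the sedentary library c, 4 without running c, 2 without running d, 4 without running e, and 2 without sedentary f or running f. In the day 18 input the olfactory receptor means were high, as given above, and 5 of 10 immature neuron markers and 3 of 8 astrocyte markers were lower than at day 11, while 3 of 8 markers of CA pyramidal and mossy cells were higher and 2 were lower. Their part in these differences was not tested.

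**Figure D4:**
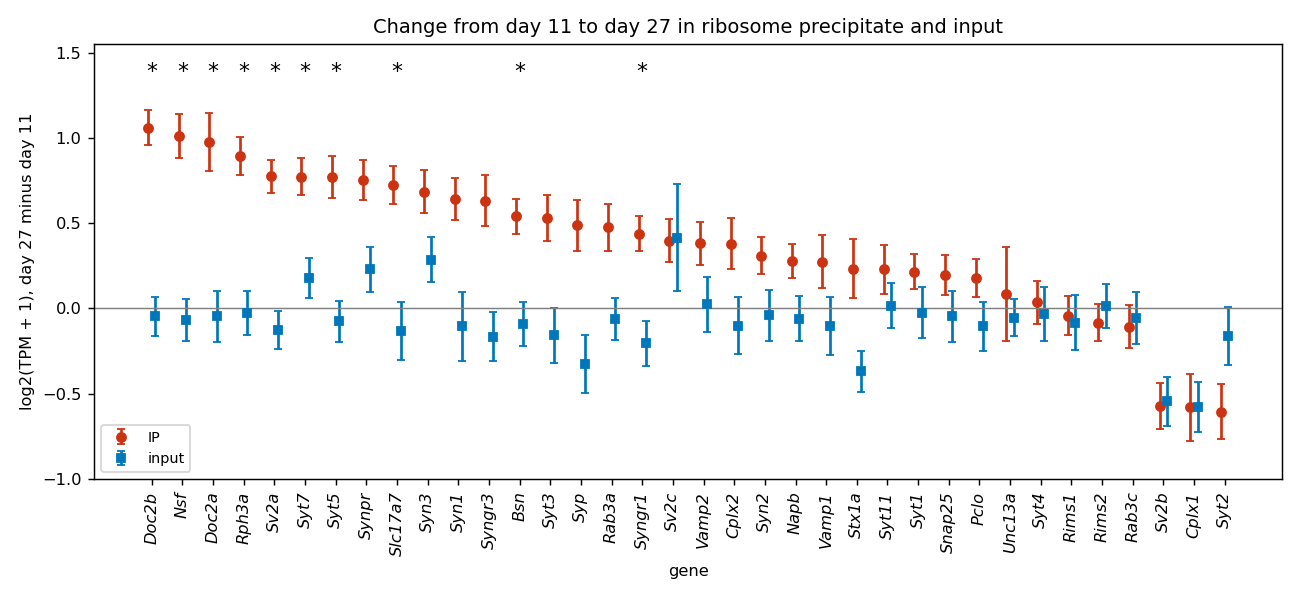
Log2(TPM + 1) at day 27 minus day 11 in the IP (red circles) and in the input (blue squares) for the 36 genes, with standard errors of the fits as bars; stars mark the 10 genes whose change differed between the fractions. Doc2b stands at 1.06 in the IP and at −0.05 in the input.

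The change of the IP was tested against that of the input in 1 fit of all 24 libraries. It differed for 10 of 36 genes, each with the more positive change in the IP, where 1.78% of all genes were called, 1.46% in that direction and 0.323% in the other. The median over the 36 genes was 0.44 and over all genes −0.01. By role, the 10 were Doc2b (1.11 ± 0.143, SE), Doc2a (1.02), Syt5 (0.85) and Syt7 (0.59) among the sensors, Nsf (1.08 ± 0.171) in the fusion machinery, Sv2a (0.90), Slc17a7 (0.85) and Syngr1 (0.64) in the vesicle membrane, Rph3a (0.92) and Bsn (0.63). Limma's adjusted p was 0.00145 for Doc2b, 0.00463 for Nsf and 0.00402 for Sv2a, and 0.0447 to 0.0499 for Bsn, Syngr1 and Syt7. The count depended on the libraries and the scaling. Of the 10, 5 remained without the day 18 libraries and 6 remained past the threshold under median-of-ratios scaling. There were 6 without both IP libraries of letter a and the sedentary input library a (5 of the 10, and Syp). All 6 had the more positive change in the IP. Over all 19826 genes tested in that fit the balance reversed, with 176 called in that direction and 405 in the other (median −0.13). With all libraries these were 285 and 63 of 19507 genes. With 1 library left out, the count of presynaptic genes ranged from 4 to 13. Of the IP, it was 5 without sedentary a, sedentary b or running e, 6 without running a and 4 without sedentary e. Of the input, it was 6 without sedentary b, 5 without sedentary e or running e, and 4 without sedentary f or running f. In each of the 24 fits that left out 1 library, Doc2b, Nsf, Sv2a and Rph3a kept their calls.

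Day by day, the median IP minus input difference over the 36 genes was −0.92 at day 11, −0.32 at day 18 and −0.07 at day 27, against 0.20, 0.02 and 0.23 over all genes. At day 11, 23 genes were lower and 4 were higher, where 41.2% of all genes were called, 12.1% lower and 29.2% higher. At day 18, 17 were lower and 9 were higher, where 64% of all genes were called, 31% lower and 33% higher. At day 27, 15 were lower and 7 were higher, where 48.9% were called, 14.3% lower and 34.6% higher. Doc2b differed by −1.06 at day 11, −0.31 at day 18 and 0.05 at day 27, and Nsf by −1.34, −0.65 and −0.26. Snap25 (−1.59, −1.55 and −1.34) and Sv2b (−1.33, −0.97 and −1.36) were lower in the IP on each of the 3 days, and Unc13a was higher on each (2.12, 2.33 and 2.26). Of the 81 other presynaptic genes, 9 changed more in the IP than in the input and 0 less. Among them Svop gave 1.02, Dnm1 0.98, Syt13 0.79 and Ppfia4, a liprin of the active zone, 0.71.

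The comparison of running with sedentary mice asked whether wheel running altered the RNA on tagged ribosomes. Limma called 0 of 36 presynaptic genes in the IP, as the mean over the 3 days, with 0.00579% of all genes called. An unadjusted p under 0.05 was found for 13 of the 36 and for 2453 of all 17282 genes tested. Of these 13, Vamp1 (−0.33), Syt4 (−0.24) and Doc2b (−0.22) were lower in running mice and the others higher. The median difference over the 36 was 0.09 against −0.07 over all genes, and 24 were positive (25 after median-of-ratios scaling). The 5 genes of lowest unadjusted p were Syn1, Synpr, Cplx1, Sv2a and Syp. Each had overlapping libraries between the groups, and no overlap was seen upward in 0.0637% and downward in 0.457% of all genes.

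**Figure D5:**
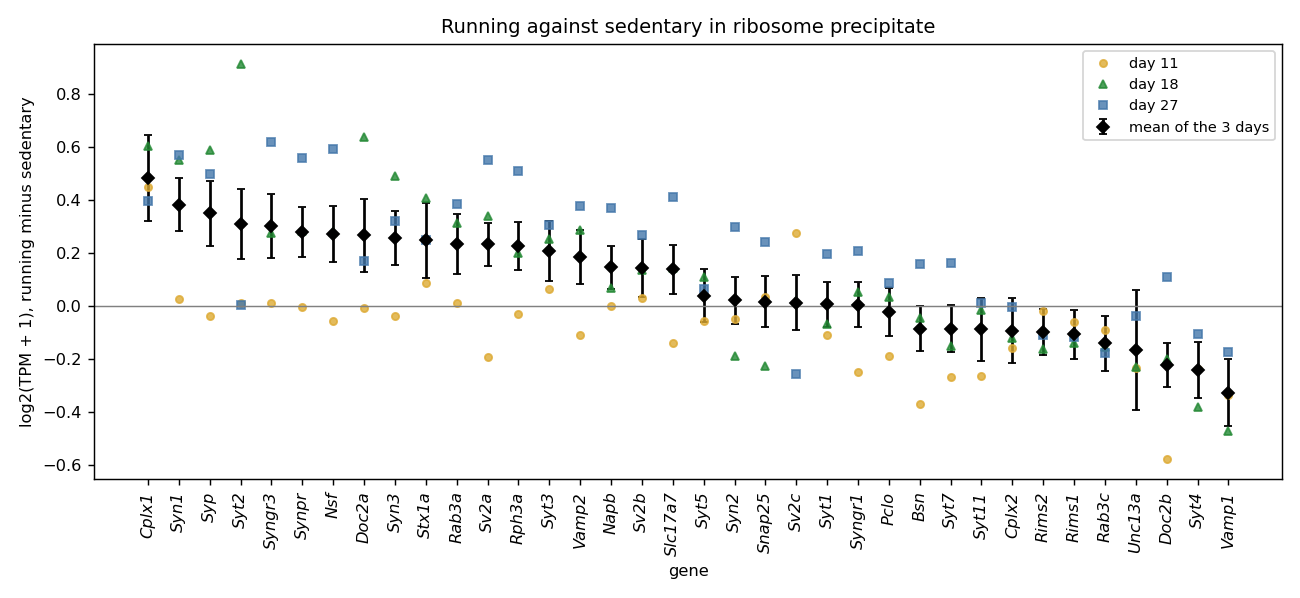
Log2(TPM + 1) of running minus sedentary in the IP for the 36 genes; black diamonds are the mean of the 3 days with standard errors of the fit, and coloured symbols are the single days, each from 2 against 2 libraries. Syn1, Syp and Sv2a lie above 0 at days 18 and 27 and near or below 0 at day 11.

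Syn1 ranged from 201.1 to 416.0 TPM in running mice (median 327.1) and from 180.2 to 280.8 TPM in sedentary mice (median 225.9), a log2 difference of 0.38 ± 0.0997 (SE, limma adjusted p = 0.17). Its running libraries of days 18 and 27 (363.4, 296.1, 416.0 and 358.2 TPM) lay above the sedentary ones of the same days (227.6, 219.9, 280.8 and 240.7 TPM), while at day 11 the groups overlapped. Syp ranged from 306.1 to 646.5 TPM (median 487.8) and from 281.4 to 425.1 TPM (median 371.2), a difference of 0.35 ± 0.122 (SE, limma adjusted p = 0.244). Synpr differed by 0.28 ± 0.095 (limma adjusted p = 0.236), Sv2a by 0.23 ± 0.080 (0.241) and Cplx1 by 0.48 ± 0.162 (0.241). None of the 5 passed the test.

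By role, all 8 vesicle membrane genes and all 3 synapsins had positive differences, and 0 of 5 active zone genes did. After median-of-ratios scaling these were 8 of 8, 3 of 3 and 1 of 5. Without that scaling, Syngr1 (0.005), Sv2c (0.013), Syn2 (0.022), Pclo (−0.022) and Unc13a (−0.17) had differences smaller in size than their standard errors. At day 27 alone, 28 of 36 differences were positive and limma called 0 (0.0289% of all genes called, 0.0231% lower). An unadjusted p under 0.05 was found for 9 of the 36 and 1714 of all 17282 genes. The lowest by unadjusted p at that day were Sv2a (0.55), Synpr (0.56), Syn1 (0.57), Rph3a (0.51) and Nsf (0.59). In each of them the 2 running libraries lay above both sedentary ones. Since these genes were picked by p, such separation of 2 against 2 libraries adds no support. It was also seen at a small difference, as in Doc2b (0.11), and its share over all genes is not given here. At day 18 the unadjusted p was under 0.05 for Syt2 (0.91), Doc2a (0.64), Syp (0.59), Syn1 (0.55), Syn3 (0.49) and Sv2a (0.34). It was also under 0.05 for Vamp1, which was lower in running mice (−0.47), and for 1550 of all 17282 genes. Syt2 had the lowest (limma adjusted p = 0.376), and these genes were not called. At day 11, 10 were positive and 2 had an unadjusted p under 0.05, as did 832 of all 17282 genes. The 2 were Doc2b (−0.58) and Bsn (−0.37), both lower in running mice. The median over all genes at that day was −0.11. The test of a difference of the running effect between days called 0 of 36 genes in the IP (3 at an unadjusted p under 0.05), where 0.00579% of all genes were called, so the days are not shown to differ. Summed markers moved beside these values: 10 of 10 immature neuron markers were positive (sums of 1783.6 to 3683.1 TPM in running and 1510.8 to 2541.1 TPM in sedentary mice) and 0 of 8 astrocyte markers were (1910.2 to 3049.5 and 2765.5 to 3891.5 TPM), none of them called. Their part in the presynaptic values was not tested.

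In the input, limma called 0 of 36 genes and 0% of all genes for running. An unadjusted p under 0.05 was found for 858 of all 20462 genes and for 1 of the 36. That gene was Doc2b, at 63.2 ± 8.32 TPM in running and 80.8 ± 7.54 TPM in sedentary mice (SD, n = 6 each), a log2 difference of −0.35 ± 0.093 (SE, limma adjusted p = 0.953). Syt2 (0.25), Syt4 (−0.23), Vamp2 (−0.22) and Snap25 (−0.17) were the next 4 by unadjusted p. The running effect in the IP minus that in the input was called by limma for 0 of 36 genes and 0% of all genes. Its unadjusted p was under 0.05 for 7 of the 36 and 1166 of all 19507 genes. Of the 81 other presynaptic genes 0 were called for running in either fraction. The lowest unadjusted p in the IP was that of Slc17a6, the vesicular glutamate transporter VGLUT2, at 13.2 ± 4.26 TPM in running and 6.62 ± 2.15 TPM in sedentary mice (limma adjusted p = 0.135). Ap3b2 (0.31) and Unc13c (−0.45), given as log2 differences, were also among the lowest by unadjusted p.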

How the data were processed

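RNA was sequenced in 24 dentate gyrus libraries, 12 immunoprecipitates and 12 inputs. The kit was SMARTer Stranded Total RNA-Seq v2, per the labels' protocols. The authors deposited 1 table of TPM values per gene, made with RSEM on mm10 per the submitters' processing notes. For the aligner, annotation and strandedness of counting, nothing is stated: not given in the sources used here. TPM keeps no read depth, so the depth of each library is unknown and no counting error is given.

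Differences were tested on log2(TPM + 1) with limma 3.58.1 in R 4.3.3 (trend and robust options), over genes with a mean of at least 1 TPM: 19507 with all 24 libraries fitted together, 17282 with the IP alone and 20462 with the input alone. P-values were adjusted by Benjamini-Hochberg over all genes of a fit, with a threshold of 0.05. The code was tested on simulated data. The 36 genes and all gene lists were chosen with earlier results of these data known. The genes described in full are the up to 6 called members of largest difference per direction, or, with none called, the 5 of lowest unadjusted p, with the 4 other presynaptic genes of lowest p and the paralog families member by member. Some genes of the other lists are not reported here. Alternatives were another pseudocount, no filter, median-of-ratios scaling, a plain eBayes, the library letter as a block, no day 18 libraries, and each library left out. Leaving out both IP libraries of letter a was added after seeing the data.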

Additional observations from a re-analysis of the deposited data

Results flagged for a closer look

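In 5 of 216 groups of 4 libraries, 1 library stood far from the other 3, where chance gives about 1 in 20 such groups. Syt3 was 36.43 TPM in the running IP library c of day 18, against 26.36 to 27.86 TPM in the others of that day. Syt4 was 32.17 TPM in the sedentary IP library f of day 27, against 26.93 to 27.5 TPM. Cplx1 was 195.89 TPM in the running IP library e of day 27, against 119.84 to 128.24 TPM. In the input, Syt5 was 130.59 TPM in the running library a of day 11, against 96.81 to 99.13 TPM, and Pclo was 194.94 TPM in the sedentary library d of day 18, against 138.33 to 139.19 TPM.

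The change from day 11 to day 27 differed between IP and input for 10 genes by the interaction test in limma. The log2 difference of the changes was 1.11 for Doc2b, 1.08 for Nsf, 1.02 for Doc2a, 0.92 for Rph3a, 0.90 for Sv2a, 0.85 for Slc17a7, 0.85 for Syt5, 0.64 for Syngr1, 0.63 for Bsn and 0.59 for Syt7.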

How the results depend on the processing

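The counts of genes higher (9) and lower (20) in the IP than in the input stayed within 1.5 times under every alternative run, as did the count of genes higher in the IP at day 27 than at day 11. Signs of differences that were not called turned in some genes, among them, under median-of-ratios scaling Syt11 and Bsn in IP minus input and Syt4 and Unc13a in the IP day 27 minus day 11, and without the day 18 libraries Sv2c in IP minus input. The small called differences of Rims1 and Pclo in IP minus input turned negative under that scaling and were not called there. With 1 library left out, genes lower in the IP at day 27 ranged from 0 to 3, calls between days 18 and 11 in the IP from 0 to 14, between days 27 and 18 from 0 to 2 in the IP and from 1 to 9 in the input, and calls of the difference between fractions from 4 to 13. Without both IP letter a libraries, chosen after seeing the data, 1 gene was lower in the IP at day 27, 0 were called at day 18 against day 11, and 6 for the difference between fractions. Without the trend and robust options these last 2 counts were 0 and 6. Without the letter a libraries, the difference between fractions over all genes gave 176 higher and 405 lower, against 285 and 63 with all libraries. Median-of-ratios scaling gave 21 calls in the input at day 18 against day 11 and 6 for the difference between fractions. The causes were not tested.

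The labels do not say what a shared letter stands for. Correlations of running with sedentary deviations at days 11, 18 and 27 were 0.197, 0.0484 and 0.0568 in the IP and 0.268, 0.0795 and 0.0816 in the input, and those of IP with input lay between -0.278 and -0.00829. Within a fraction, same-lettered libraries thus deviated together most at day 11 and only weakly at days 18 and 27. The letter was not taken as a pairing. With the letter as a replicate block, 16 genes were called in the IP at day 18 against day 11. At day 27 against day 18 it was 5, and in the input at day 27 against day 11 it was 1. The difference between fractions gave 1 (Doc2b) and running in the IP gave 3 (Syn1, Cplx1 and Syp). Over all genes, running in the IP gave 125 higher and 315 lower with the block, against 0 and 1 without it. The difference between fractions gave 3 higher and 2 lower over all genes, against 285 and 63 without the block. TPM keeps no depth, so the precision of low genes such as Syt2 and Doc2a is unknown.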
